A study of Mus musculus with 12 samples.

Results

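Hes1, Hes5, Hes6, Hey1, Hey2 and Heyl encode the Hes and Hey repressors, a family of basic helix-loop-helix (bHLH) proteins. These 6 genes were taken by symbol out of 37620 gene IDs in the count tables, and all 6 were found. They were measured in 12 stranded mRNA libraries of neural stem cells (neuronal stem cells in the labels) grown from E14.5 mouse embryos of the C57BL/6J strain. The untreated cells had been kept dividing in medium with FGF-2 and EGF, each at 20 ng/ml. There were 4 groups of 3 libraries, labelled E12+/+ (E12wt), E12-/- (E12KO), E47+/+ (E47wt) and E47-/- (E47KO), and the wild-type cells of each line came from litter mates of its knockouts. E12 and E47 are splice forms of the gene Tcf3 and belong to the E proteins, bHLH activators that pair with proneural factors. How the knockouts were made is not in the labels, nor whether replicates are separate embryos, so the p-values measure only the spread between these libraries, which may be technical in part. The E47wt libraries differ in sex-linked expression and so do not all come from the same embryo.

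In neural stem cells, a Notch receptor that has bound a ligand of the Delta or Jagged type on a neighbouring cell is cut, and its intracellular part joins the DNA-binding protein RBPJ to switch on Hes1, Hes5 and the Hey genes. Their proteins recruit Groucho (Tle) co-repressors and hold down proneural genes such as Neurog2 and the ligand gene Dll1, which keeps cells undifferentiated. Hes6 is the exception of the family: it counteracts Hes1 and is itself switched on by proneural factors. E proteins are the partners of those proneural factors, and Id proteins sequester E proteins.

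Gene-assigned reads per library numbered 34515297 to 56835783, and 3 reads, used as a floor, equal 0.0541 to 0.0832 CPM (the read count scaled to library size). Summed over 9 neural stem cell markers the level was 9138 to 10882 CPM in every library. The 7 neuron markers summed to 1088 to 1419 CPM, and microglia markers to 0.439 to 1.15 CPM. Tcf3 was read at 72.9 to 101 CPM in E12KO and at 108 to 118 CPM in E47KO. The 6 wild-type libraries had 75.4 to 97.2 CPM. Since reads of E12 and E47 fall into 1 gene count, the knockout labels are not checked by it. E47KO replicate 2 stood apart: its log2 CPM values correlated with those of its own group at 0.965 and 0.977, against 0.985 to 0.994 for the other pairs of libraries within groups. Xist was high in all 6 E12 libraries and in E47wt replicates 1 and 3. Y-linked genes were high in E47wt replicate 2 and in all 3 E47KO libraries. The sex of the cells thus goes with the genotype in the E47 line in all libraries but E47wt replicate 2. In libraries of whole cultures, fewer cells of a kind and less RNA per cell cannot be told apart.

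Hes5 was by far the most abundant family member and Heyl the least. Levels of different genes are compared here as CPM per kilobase of exon, averaged over the 12 libraries. The mean was 316 for Hes5, 56.5 for Hey1, 32.2 for Hes1, 26.9 for Hes6, 4.13 for Hey2 and 0.683 for Heyl. The ranges over libraries of Hey1 (29.6 to 80.1), Hes1 (22.9 to 51.5) and Hes6 (21.0 to 42.0) overlapped, so their order was not separated by the spread. Hes5, at 213 to 709, lay above all of these in every library, and Hey2 (0.830 to 9.96) and Heyl (0.192 to 1.53) lay below them in every library. Hes2 had no read in any of the 12 libraries, which allows up to 0.0832 CPM in the shallowest of them.

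**Figure D1:**
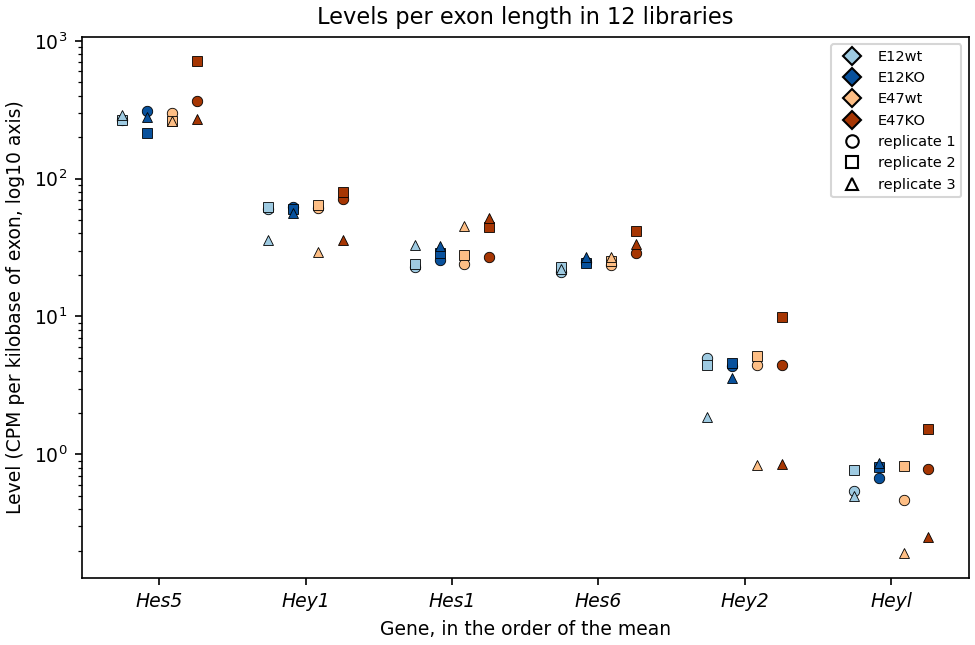
Level of each gene in CPM per kilobase of exon (vertical, log10 axis) in each of the 12 libraries, with colour for the group and symbol for the replicate number. Hes5 lies at 213 to 709 in all libraries, Hey1, Hes1 and Hes6 overlap, and Hey2 and Heyl lie at the bottom with the widest scatter.

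The stretch before the start site was compared for the members for which RefSeq sequences were at hand, namely Hes5, Hey2 and Hes6 (3 of 6 members, build GRCm38.p6). Hes5 and Hey2 are shown because both hold a pair of matches to the RBPJ core, TGGGAA searched on both strands, which appears in capitals as TGGGAA or its complement TTCCCA. Each stretch runs from 250 bases before the start to 10 bases after it, on the gene's own strand.
Hes5, chr4:154960673-154960932, plus strand: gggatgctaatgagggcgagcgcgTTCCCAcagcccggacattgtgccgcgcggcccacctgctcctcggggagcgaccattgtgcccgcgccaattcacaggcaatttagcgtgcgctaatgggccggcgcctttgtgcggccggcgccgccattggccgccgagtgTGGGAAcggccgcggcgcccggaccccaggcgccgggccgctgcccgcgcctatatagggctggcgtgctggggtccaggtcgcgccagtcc
Hey2, chr10:30842774-30843033, minus strand: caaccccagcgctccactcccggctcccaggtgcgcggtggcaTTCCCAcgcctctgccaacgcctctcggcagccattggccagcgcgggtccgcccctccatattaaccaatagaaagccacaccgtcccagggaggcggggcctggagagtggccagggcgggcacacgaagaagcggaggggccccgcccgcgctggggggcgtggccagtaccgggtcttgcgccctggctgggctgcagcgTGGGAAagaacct
In Hes5 the matches begin at -226 and -82 from the start site, and in Hey2 at -207 and -3. All 4 are preceded by G on their own strand (GTGGGAA). Of 32851 promoter windows of 250 bases before to 50 after a start, 25.6% hold TGGGAA at least 1 time and 6.38% hold GTGGGAA. Each of the Hes5 and Hey2 windows also holds 1 E-box of the CAGGTG form, at -194 and -223, a form present in 20.2% of windows.

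Hes6 has windows at 2 start sites, and both are shown because neither holds the RBPJ core while both hold E-boxes of forms that E proteins are known to bind, CAGGTG or CAGCTG, in capitals on either strand.
Hes6 first start, chr1:91414029-91414288, minus strand: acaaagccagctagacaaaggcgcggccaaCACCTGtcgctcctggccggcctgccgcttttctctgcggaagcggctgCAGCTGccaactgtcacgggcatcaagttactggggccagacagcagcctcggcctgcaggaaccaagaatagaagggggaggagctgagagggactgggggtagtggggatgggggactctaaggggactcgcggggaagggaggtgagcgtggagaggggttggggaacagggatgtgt
Hes6 second start, chr1:91413213-91413472, minus strand: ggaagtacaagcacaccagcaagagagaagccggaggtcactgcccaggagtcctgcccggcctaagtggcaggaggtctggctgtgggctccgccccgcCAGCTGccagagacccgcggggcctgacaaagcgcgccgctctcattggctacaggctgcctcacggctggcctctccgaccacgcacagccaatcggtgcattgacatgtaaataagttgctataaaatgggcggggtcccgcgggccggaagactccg
The first window has CAGGTG at -220 and CAGCTG at -171, and the second has CAGCTG at -150. CAGCTG is present in 16.3% of all windows, and the general E-box CANNTG, which includes both forms, in 72.3%. These are matches of letters and not sites known to be bound in these cells.

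The first comparison asks how the family stood in cells without E12. None of the 6 genes differed between E12KO and E12wt by the test over all genes, and the ratio of group means ran from 0.977 for Hes5 to 1.29 for Heyl. Hes6 came closest, at 46.0 ± 2.43 CPM in E12KO against 39.7 ± 1.81 in E12wt (SD, n = 3).

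In E12wt replicates 1, 2 and 3 Hes1 was read at 46.7, 48.6 and 66.7 CPM, and the E12KO values were 52.1, 59.0 and 66.3 CPM. The groups overlapped, and in the wild type replicate 3 was well above the other wild-type libraries. The fitted log2 fold change was 0.13 ± 0.14 (SE, edgeR quasi-likelihood test, BH-adjusted p = 0.767). Hes5, the main Notch effector of the embryonic brain together with Hes1, had 363, 365 and 393 CPM in the wild type (E12wt) against 424, 291 and 380 CPM in E12KO. Its wild-type libraries lay between the lowest and highest knockout libraries, and the log2 fold change was -0.03 ± 0.12 (edgeR, adjusted p = 0.942).

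Hes6, the antagonist of Hes1, had 38.0, 41.6 and 39.7 CPM in the wild type (E12wt) against 45.1, 44.2 and 48.8 CPM in E12KO. All knockout libraries lay above all wild-type libraries. The log2 fold change was 0.21 ± 0.07 (edgeR, adjusted p = 0.523 over 14755 genes). In the authors' deposited table the adjusted p of Hes6 for this comparison is 0.324.

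Hey1, a repressor that also maintains neural precursors, had 195, 203 and 118 CPM in the wild type (E12wt) against 204, 195 and 183 CPM in E12KO. Hey2 had 23.0, 20.4 and 8.60 CPM in the wild type (E12wt) against 20.1, 21.1 and 16.4 CPM in E12KO. Heyl, the third Hey gene, had 2.77, 3.91 and 2.57 CPM in the wild type (E12wt) against 3.42, 4.15 and 4.40 CPM in E12KO. For all 3 genes the groups overlapped, and for Hey1 and Hey2 the lowest library was E12wt replicate 3. The log2 fold changes were 0.18 ± 0.18 for Hey1, 0.15 ± 0.31 for Hey2 and 0.38 ± 0.20 for Heyl (edgeR, adjusted p = 0.756, 0.887 and 0.578). Without E12wt replicate 3 they were -0.04 for Hey1, -0.19 for Hey2 and 0.25 for Heyl.

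Against the background of all genes, the counts for this comparison were as follows. By edgeR 0 of 6 members were called (0.0407% of 14755 genes), and by DESeq2 0 of 6 (0.558% of 17024 genes). At an unadjusted p under 0.05 there was 1 member, Hes6 (8.96% of all genes), and 1 member lay wholly above the wild type, again Hes6 (6.48%). A fold change above 0 was fitted for 5 of 6 members (51.4%), and for 3 of 6 without E12wt replicate 3. The unadjusted 95% intervals of the log2 fold change were -0.19 to 0.46 for Hes1, -0.31 to 0.24 for Hes5, 0.05 to 0.38 for Hes6, -0.23 to 0.59 for Hey1, -0.55 to 0.85 for Hey2 and -0.08 to 0.83 for Heyl. Changes of 2-fold in either direction thus lay outside these intervals for all 6 genes. The widths depend on the spread that edgeR fitted, and the authors' deposited table gives a larger SE for Hey2, 0.430.

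**Figure D2:**
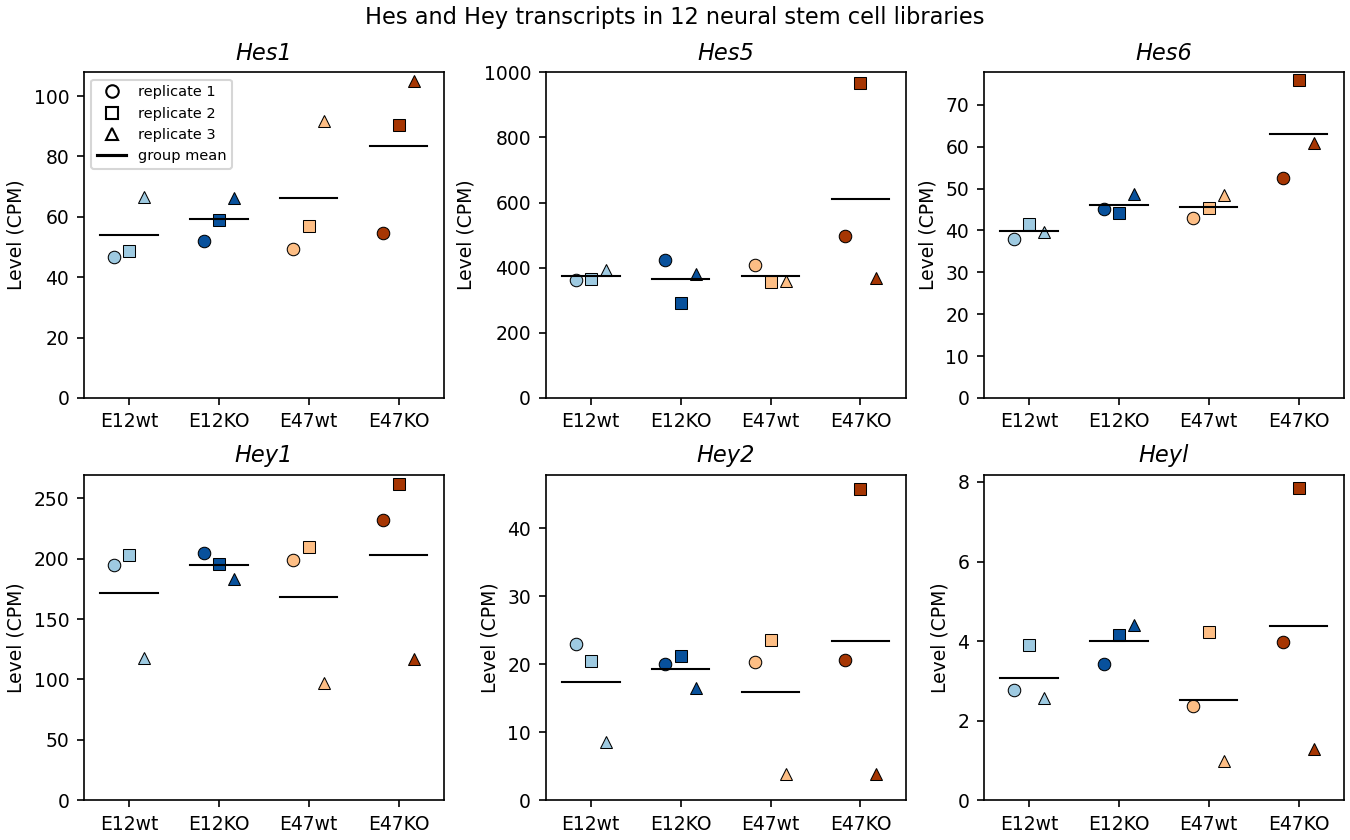
Level in CPM (vertical, linear from 0) of each gene in every library, by group, with symbol for the replicate number and a bar for the group mean of 3 libraries. Replicate 3 of E12wt, E47wt and E47KO (triangles) is low in Hey1 and Hey2, and E47KO replicate 2 (square) is the highest library in Hes5, Hes6, Hey1, Hey2 and Heyl.

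The same question was put to cells without E47. The group means of all 6 genes were higher in E47KO than in E47wt, by 1.21-fold for Hey1, 1.26-fold for Hes1, 1.38-fold for Hes6, 1.47-fold for Hey2, 1.63-fold for Hes5 and 1.73-fold for Heyl. No gene passed the test over all genes. The spread in E47KO was wide.

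In E47wt replicates 1, 2 and 3 Hes1 had 49.3, 57.01 and 91.8 CPM, against 54.6, 90.5 and 105 CPM in E47KO. The groups overlapped, and replicate 3 was the highest library of both. Hes5 had 407, 355 and 359 CPM in the wild type (E47wt) against 498, 966 and 368 CPM in E47KO. The knockout value of 966 CPM was the highest of all 12 libraries, while knockout replicate 3 lay within the range of the wild type. The log2 fold changes were 0.32 ± 0.30 for Hes1 and 0.70 ± 0.33 for Hes5 (edgeR, adjusted p = 0.971 for both).

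Hes6 had 42.9, 45.4 and 48.5 CPM in the wild type (E47wt) against 52.4, 75.9 and 60.9 CPM in E47KO. It was the only member whose knockout libraries all lay above the wild type, as in the E12 line. The log2 fold change was 0.45 ± 0.16 (edgeR, adjusted p = 0.971 over 14965 genes).

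Hey1 had 199, 210 and 96.6 CPM in the wild type (E47wt) against 232, 261 and 117 CPM in E47KO. Hey2 had 20.3, 23.5 and 3.81 CPM in the wild type (E47wt) against 20.6, 45.8 and 3.89 CPM in E47KO. Heyl had 2.37, 4.24 and 0.980 CPM in the wild type (E47wt) against 3.98, 7.85 and 1.28 CPM in E47KO. In all 3 genes replicate 3 was the lowest library of both groups, and the difference between replicates within a group exceeded that between groups. The log2 fold changes were 0.26 ± 0.37, 0.54 ± 0.89 and 0.77 ± 0.71 for Hey1, Hey2 and Heyl (edgeR, adjusted p = 0.971 for all 3). Without E47KO replicate 2 the log2 fold changes were 0.26 for Hes1, 0.20 for Hes5, 0.30 for Hes6, 0.03 for Hey1, -0.40 for Hey2 and 0.03 for Heyl. Without E47wt replicate 3 that of Hey1 was -0.01, that of Hey2 0.09 and that of Heyl 0.39.

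By edgeR 0 of 6 members were called in this comparison (0.0134% of 14965 genes), and by DESeq2 0 of 6 (0.0221% of 22669 genes). At an unadjusted p under 0.05 there was 1 member, Hes6 (2.19% of all genes), and 1 lay wholly above the wild type (4.02%). Fold changes above 0 were fitted for 6 of 6 members (49% of all genes), and for 5 of 6 without E47KO replicate 2 or without E47wt replicate 3. Libraries of the same number were taken as pairs in this line, although the labels state no pairing. Deviations of replicates 2 and of replicates 3 ran together (r = 0.229 and 0.455). E47wt replicate 1 ran more like E47KO replicate 2 (r = 0.148) than like E47KO replicate 1 (0.100). Between libraries of the same number, all 6 members were higher in the knockout in all 3 pairs, as were 13.1% of all genes. Some pairs were near ties, with ratios of 1.01 and 1.02 for Hey2 (replicates 1 and 3) and 1.02 for Hes5 (replicate 3). In the E12 line, where no pairing was adopted, the knockout was higher in 13 of 18 such ratios. Since the pairing was taken from these same data, this count and the block fit that follows only describe the libraries. In the fit with the replicate number as a block, 3 of 6 members had an unadjusted p under 0.05 (3.29% of all genes): Hes6 (log2 fold change 0.44 ± 0.13), Hey1 (0.26 ± 0.10) and Heyl (0.68 ± 0.21), each at an adjusted p of 0.866 (edgeR).

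The unadjusted 95% intervals without the block ran from -0.38 to 1.02 for Hes1, -0.07 to 1.47 for Hes5, 0.09 to 0.82 for Hes6, -0.62 to 1.14 for Hey1, -1.54 to 2.63 for Hey2 and -0.90 to 2.43 for Heyl. With the class of sex-linked expression in the fit, which rests on E47wt replicate 2 as the only wild-type library of the knockouts' class, the values were 0.53 for Hes1, 0.77 for Hes5, 0.46 for Hes6, -0.06 for Hey1, -0.03 for Hey2 and 0.02 for Heyl, with an adjusted p of 0.999 for all 6 (edgeR). In the authors' deposited table, the adjusted p of all 6 members for this comparison is 0.999.

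**Figure D3:**
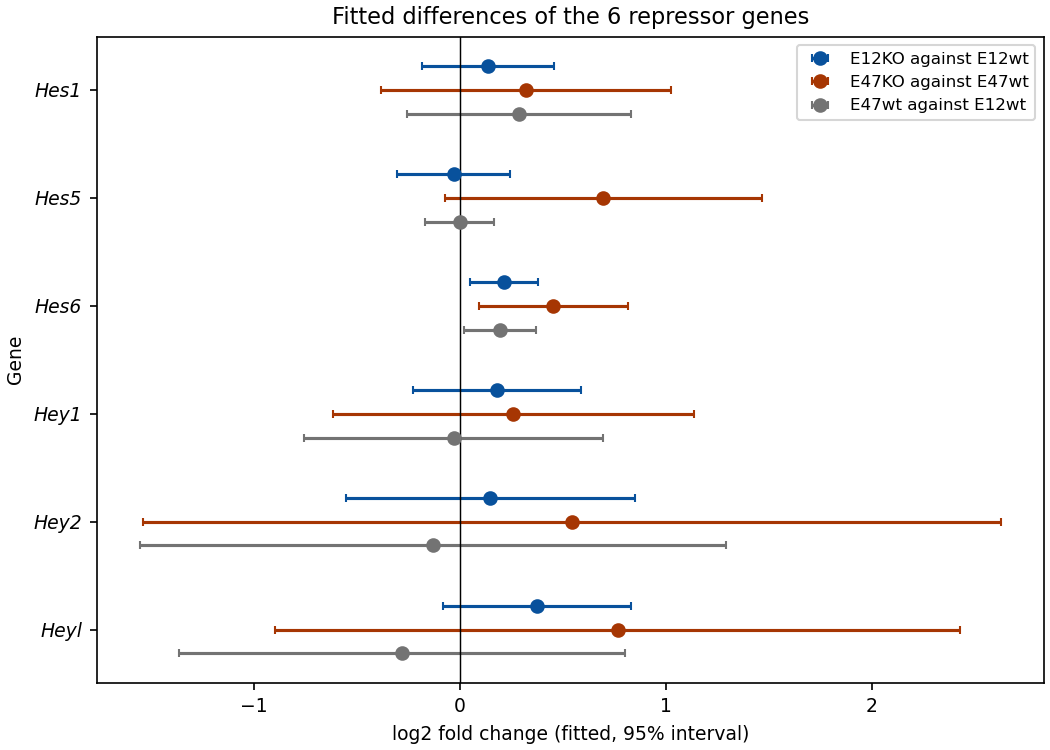
Fitted log2 fold change (horizontal) with its unadjusted 95% interval for each gene, for E12KO against E12wt, E47KO against E47wt and E47wt against E12wt. The intervals of Hes6 exclude 0 in each, none passed adjustment over all genes, and Hey2 and Heyl have the widest intervals.

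Whether the lines differ in how the family responds was tested as an interaction. For Hes5 the effect in the E47 line exceeded that in the E12 line by 0.73 ± 0.39 on the log2 scale (edgeR interaction, adjusted p = 0.932). For Hes6 the difference was 0.25 ± 0.17 (edgeR, adjusted p = 0.932). By edgeR 0 of 6 members were called (0% of 15277 genes), 0 of 6 had an unadjusted p under 0.05 (3.03% of all genes), and by DESeq2 0 of 6 were called (0.00422% of 23722 genes). The fitted difference was above 0 for 6 of 6 members (50.7% of all genes) and for 3 of 6 without E47KO replicate 2. An effect in 1 line only was therefore not shown for any member.

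The wild types of both lines served to show how far the family varies without a knockout. Hes6 was higher in all E47wt than in all E12wt libraries, at 45.6 ± 2.80 against 39.7 ± 1.81 CPM (SD, n = 3), a log2 difference of 0.19 ± 0.08 (edgeR, adjusted p = 1). This is about the size of its difference in the E12 line. By edgeR 0 of 6 members were called (0% of 14892 genes) and by DESeq2 0 of 6 (0.0383% of 20883 genes). At an unadjusted p under 0.05 there was 1 member, Hes6 (3.81% of all genes), and 1 lay without overlap on the higher side (5.13%). Of the 6 members, 2 had a difference above 0 (48.5% of all genes).

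The larger differences of this family lay between libraries within groups. The within-group SD of log2 CPM was 1.22 for Hey2, larger than that of 99.7% of 12588 genes (those averaging 1 CPM or more), and 0.852 for Heyl (98.9%). For Hey1 it was 0.495 (94.0%), for Hes5 0.388 (87.8%) and for Hes1 0.378 (87.0%), while Hes6 with 0.150 (36.1%) lay below the median of 0.188. From the lowest to the highest library Hey2 ran from 3.81 to 45.8 CPM, Heyl from 0.980 to 7.85 CPM and Hey1 from 96.6 to 261 CPM, while Hes6 ran from 38.0 to 75.9 CPM. Counting error is small beside this: the lowest library of Hey2 still had 179 reads and that of Heyl 46.

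Replicate 3 of E12wt, E47wt and E47KO had lower Hey1 and Hey2 than any of the other 9 libraries. Hey1 was at 118, 96.6 and 117 CPM there, against 183 to 261 CPM in the rest. Hey2 was at 8.60, 3.81 and 3.89 CPM, against 16.4 to 45.8 CPM. Hes5 in these 3 libraries, at 393, 359 and 368 CPM, lay within the range of the others. Bhlhe40 and Bhlhe41, which encode the related Dec repressors, and the Notch receptor gene Notch4 were also lower in all 3 than in the other 9. So were 2 of 7 genes of the E protein and Id list, Id1 (28.5, 15.6 and 13.0 CPM against 33.3 to 56.9) and Id3 (63.4, 83.7 and 74.1 CPM against 125 to 279). Of 24 genes of Notch processing and signal transfer 4 were lower in all 3, among them Nrarp (108, 87.3 and 85.6 CPM against 109 to 203). The share of all genes lower in these 3 libraries was not counted. In E12KO no library had this pattern.

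Some cell type markers differed in these libraries. The 6 oligodendrocyte lineage markers, all at a mean of at least 1 CPM, summed to 660, 598 and 542 CPM in the 3 libraries. The other 9 had 359 to 427 CPM. Most of each sum was Olig2, a bHLH factor of that lineage and of ventral progenitors. Olig2 was the only 1 of the 6 higher in all 3 than elsewhere, at 459, 437 and 435 CPM against 258 to 321 CPM. Sox10, which marks committed cells of the lineage, was at 12.002 CPM in E12wt replicate 3 but at 2.17 and 1.87 CPM in E47wt and E47KO replicates 3, and at 1.52 to 13.5 CPM in the other 9. Of 9 neural stem cell markers 1 was lower in all 3 than in the other 9, Pax6 (45.8, 46.0 and 44.9 CPM against 47.7 to 66.1 CPM). Of 4 astrocyte markers at a mean of at least 1 CPM, 1 was lower in all 3, S100b (2.06, 1.90 and 1.28 CPM against 2.90 to 9.04 CPM). The mural list summed to 8.95, 3.37 and 6.09 CPM, almost all of it Acta2, which was lower in all 3 than in the other 9 libraries. The highest value of the other 4 mural markers in any library was 0.360 CPM (Pdgfrb). The part of these cell types in the low Hey1 and Hey2 values was not tested.

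E47KO replicate 2 had the highest level of all 12 libraries for Hes5, Hes6, Hey1, Hey2 and Heyl. It was also highest in 3 of 4 Notch receptor genes, with Notch1 at 483 CPM (200 to 251 elsewhere), Notch2 at 147 CPM (65.9 to 106) and Notch3 at 147 CPM (38.5 to 72.8). So were 15 of 24 genes of Notch processing and signal transfer, 5 of 7 of the E protein and Id list, and 4 of 7 of the genes that Hes proteins repress, among them Cdkn1c (15.9 CPM against 3.98 to 9.50 CPM). The share of all genes at their highest in this library was not counted, so these counts do not set the lists apart from other genes. The ligand genes split: Dll1 (152 CPM) and Dll3 (38.0 CPM) were at their highest, and Jag1 (21.6 CPM) and Dlk1 at their lowest. Astrocyte markers summed to 435 CPM against 171 to 330 CPM in the other 11 libraries. Most of the sum was Aldh1l1 (205 CPM, against 16.3 to 149 CPM elsewhere) and Aldoc (197 CPM, against 145 to 192 CPM). Aqp4, a water channel of astrocytes, was at 24.0 CPM in this library against 1.66 to 4.84 CPM. Gfap, the classical astrocyte marker, was at 0.887 CPM there and at 0.272 to 0.955 CPM elsewhere, and Gjb6 had no read there. Sox10 (13.5 CPM) was also at its highest in this library. The neuron sum, 1088 CPM, was the lowest of the 12, and 971 CPM of it was Map2. Of 6 neuron markers at a mean of at least 1 CPM, 2 were at their lowest there. Tubb3 was at its highest, at 41.6 CPM against 13.0 to 26.6 CPM elsewhere. The part of these cells in the higher Hes and Hey values of this library was not tested.

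**Figure D4:**
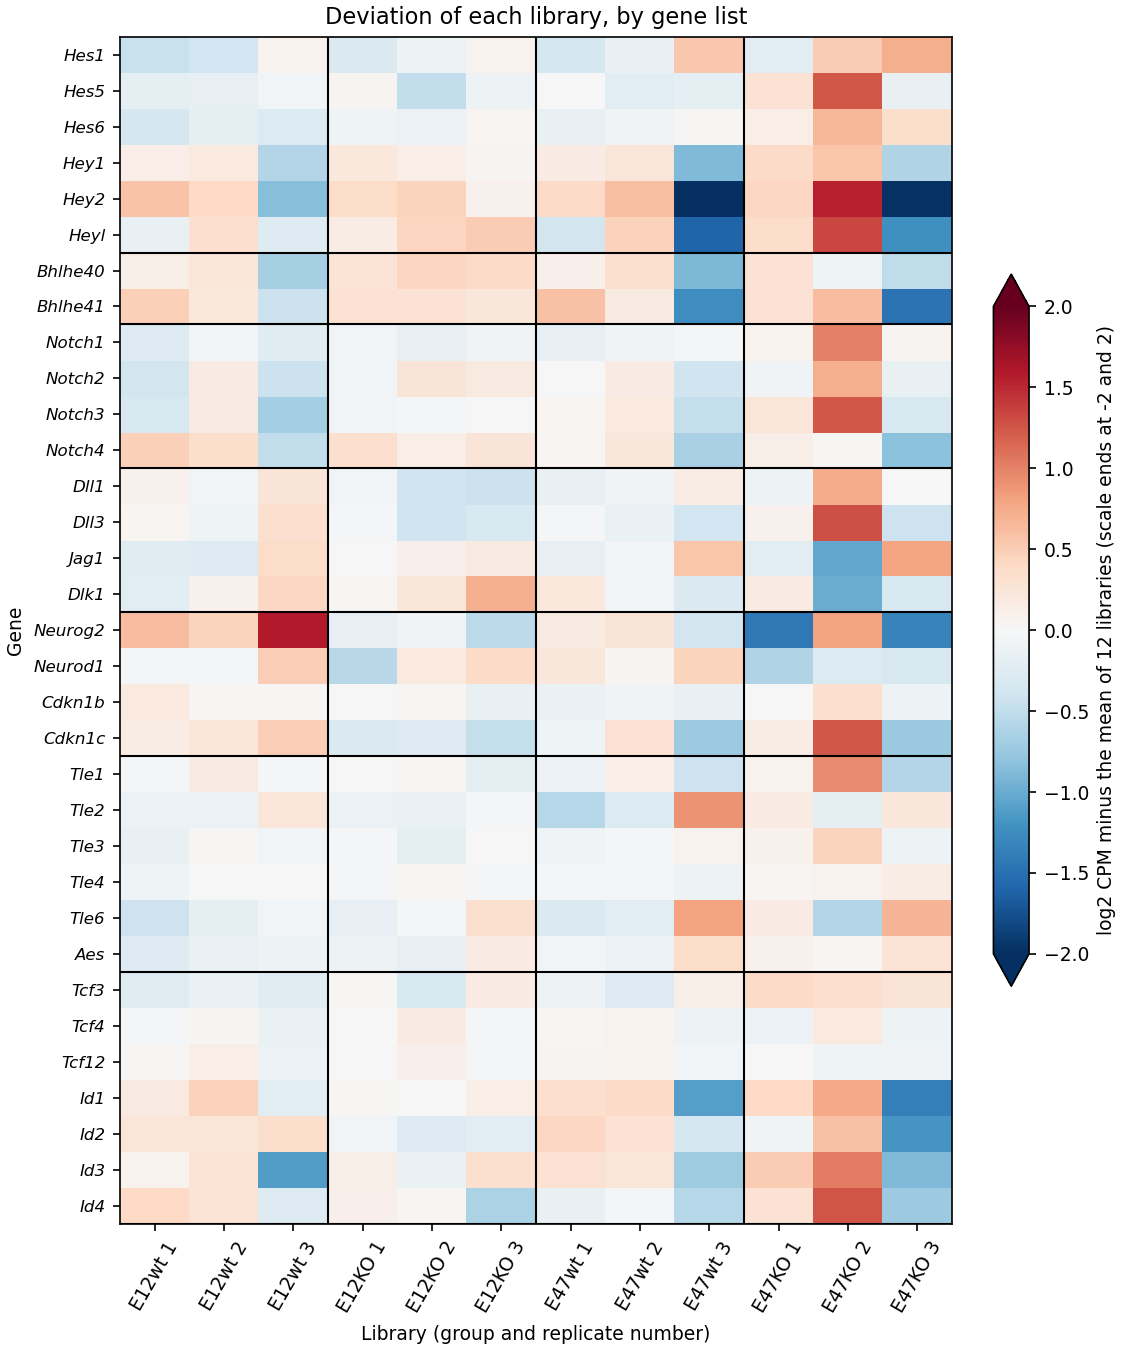
Log2 CPM of each gene (rows, grouped by list from the 6 repressors at the top) minus its mean over the 12 libraries (columns), with red above and blue below the mean. Hey2 is deep blue in replicate 3 of E47wt and E47KO, and E47KO replicate 2 is red in Hes5, Hes6, all Hey genes and Notch1, Notch2 and Notch3.

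Whether members vary together was examined for 15 pairs over the log2 CPM of 12 libraries. In Hey1 and in Hey2 the 3 low libraries lay apart from all others. E47KO replicate 2 lay above the other 8 in both genes. It stood apart from them in Hey2 (45.8 CPM, with 23.5 CPM the next) but less so in Hey1 (261 CPM, with 232 CPM the next). In Heyl, E47wt and E47KO replicates 3 (0.980 and 1.28 CPM) and E47KO replicate 2 (7.85 CPM) lay outside the rest. E12wt replicate 3 (2.57 CPM) did not, as it was above E47wt replicate 1 (2.37 CPM). Since these few libraries would carry it, no pooled correlation is given for pairs with a Hey gene. Within those 8 libraries the 12 pairs with a Hey gene had Pearson's r from -0.562 (Hes1 and Hey2) to 0.728 (Hes1 and Heyl), and the lowest exact permutation p adjusted over 15 pairs was 0.433 for r. For Spearman's rho it was 0.161, in Hes1 and Heyl (rho = 0.857, exact permutation p = 0.0107 before adjustment). Hey1 and Hey2 had r = 0.417 and Spearman's rho = 0.262 there (n = 8, exact permutation p = 0.279 and 0.536). Because these 8 libraries were picked on the levels of Hey1 and Hey2, which narrows the range of both, whether the 2 genes vary together cannot be tested here.

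Hes1 and Hes6 were correlated over all 12 libraries, with r = 0.731 (permutation p = 0.00729, adjusted over 15 pairs 0.0273) and rho = 0.650 (p = 0.0261, adjusted 0.0977). Without the 2 libraries farthest from the median of Hes1, replicates 3 of E47KO and E47wt, r was 0.783 (permutation p = 0.0202, adjusted 0.131). Spearman's rho was then 0.539 (permutation p = 0.114, adjusted 0.561). That setting keeps E47KO replicate 2, which was high in both genes. Within the 8 libraries, which leave it out, r was 0.682 (exact permutation p = 0.0619, adjusted 0.433). The relation of Hes1 and Hes6 thus passed adjustment only for r over all 12 libraries. Hes5 and Hes6 had r = 0.740 (permutation p = 0.0227, adjusted 0.0682) and rho = 0.350 (p = 0.266, adjusted 0.499), and r = -0.0426 without E47KO replicates 1 and 2, so that relation rests on those libraries. Hes1 and Hes5 had r = 0.301 and rho = 0.00699 (permutation p = 0.369 and 0.991, adjusted 0.461 and 0.991), and r = 0.681 without the same libraries as for Hes1 and Hes6. Centred on the group means, r was 0.611 for Hes1 and Hes6. No p-value is given for it, since centring ties the values of a group to each other and free permutation ignores that.

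**Figure D5:**
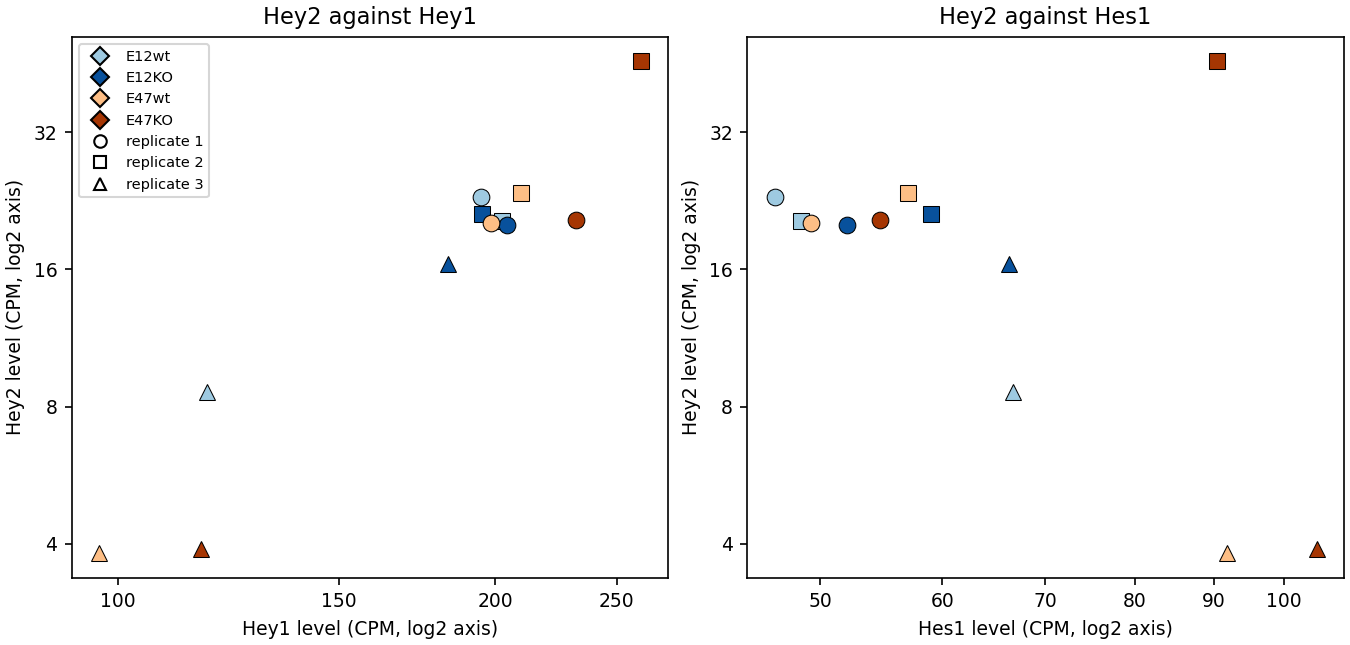
Level of Hey2 (vertical, CPM, log2 axis) against Hey1 (left) and Hes1 (right) in each of the 12 libraries, with colour for the group and symbol for the replicate number. In the left panel 3 triangles sit at the lower left and E47KO replicate 2 at the upper right, and the other 8 libraries crowd between 183 and 232 CPM of Hey1.

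The genes of at least 1 CPM whose log2 CPM ran most like each member over the 12 libraries were named by Pearson's r among 12587 genes. For Hes1 they were Nde1 (r = 0.947), Pml (0.940) and Rapgef3 (0.938). For Hes5 they were Arhgef10l (r = 0.990), Mib2 (0.985) and Mzt2 (0.984), and for Hes6 Slc4a2 (r = 0.975), Lamb2 (0.961) and Cryz (0.955). For Hey1 they were Ddx28 (r = 0.975), Cystm1 (0.967) and Pttg1ip (0.965), for Hey2 Irf2bp2 (r = 0.979) and Sox21 (0.977), and for Heyl Naaa (r = 0.979), Renbp (0.939) and Ndel1 (0.937). These values describe the libraries and carry the same few that stand apart. By rank correlation at most 1 of the 3 genes stayed among the first 3 for any member.

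Among the other genes of the pathway, listed by role, none was called by edgeR in any of the comparisons. In E12KO all 4 Notch receptor genes had fold changes above 0 (median log2 0.15, against 0.00 for all genes, of which 51.4% lay above 0), and 0 of 4 had an unadjusted p under 0.05. Without E12wt replicate 3 it was 3 of 4 (median 0.03), and without E12wt replicate 2 the median was 0.32. Of 7 ligand genes 5 lay below 0 (median -0.29), with Dll1 at -0.38 ± 0.11 and Dll3 at -0.33 ± 0.14 (edgeR, adjusted p = 0.515 and 0.549). The ligand median was -0.18 without E12wt replicate 3, -0.11 without E12KO replicate 2 (4 of 7 below 0 in each) and -0.45 without E12KO replicate 1. Of 25 genes for ligand and receptor processing and signal transfer, 12 lay above and 13 below 0, none of them at an unadjusted p under 0.05. Adam10, the protease that makes the first cut of the receptor upon ligand binding, and Mib1, which primes ligands for uptake, had the highest mean CPM of these (not scaled by length). The 6 Groucho genes were split evenly (median 0.00).

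Of 10 genes that Hes proteins are known to repress, 8 could be tested in the E12 line. All 8 had fold changes below 0 (median log2 -0.22, with 51.4% of all genes above 0), and 4 of 8 had an unadjusted p under 0.05, against 8.96% of all genes. They were Neurog2 at -1.25 ± 0.34, Cdkn1c at -0.64 ± 0.14, Dll1 and Dll3 (edgeR, lowest adjusted p = 0.418). Neurog2, a proneural factor, had 1.52, 1.34 and 3.03 CPM in the wild type (E12wt) against 0.868, 0.925 and 0.665 CPM in E12KO, with no overlap. Cdkn1c, the cell cycle inhibitor p57, had 7.46, 7.92 and 9.50 CPM in the wild type (E12wt) against 5.48, 5.602 and 4.80 CPM in E12KO, again with no overlap (DESeq2, adjusted p = 0.0176). Without E12wt replicate 3, the highest of the 6 E12 libraries in both genes, 6 of 8 lay below 0 and 3 of 8 had an unadjusted p under 0.05 (6.34% of all genes), while 3 of the 6 repressors then lay above 0 and 3 below. Whether the repressors and these genes are related was not tested. Dll1 and Dll3 count in this list and among the ligands. Several cell type markers also lay wholly lower in E12KO, as did 7.17% of all genes. Pdgfra, of oligodendrocyte precursors, was at 44.7 to 93.3 CPM in E12wt and 15.3 to 34.6 CPM in E12KO, and the neuron marker Rbfox3 at 3.19 to 4.18 and 2.40 to 2.58 CPM. The 5 mesenchyme markers summed to 5.74 to 7.92 CPM in E12wt and 1.09 to 1.45 CPM in E12KO. Of the neural stem cell markers, Prom1 was at 13.61 to 21.5 CPM in E12wt and 11.4 to 13.57 CPM in E12KO, and Hopx at 10.97 to 11.5 and 8.48 to 10.2 CPM. Tek, an endothelium marker, lay wholly higher (0.717 to 1.07 and 1.27 to 1.68 CPM), as did 6.48% of all genes. The summed lists of neuron (1268 to 1368 and 1253 to 1419 CPM), oligodendrocyte lineage (400 to 660 and 366 to 420 CPM) and neural stem cell markers overlapped. The part of such cell types in the values of the E12 line was not tested.

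In the E47 line the same list was mixed, with 5 of 8 above 0 (median 0.10; 3 of 8 and -0.09 without E47KO replicate 2) and 1 at an unadjusted p under 0.05, Neurod1 at -0.68 ± 0.24 (edgeR, adjusted p = 0.971). The difference between the lines was not significant for any gene of the list (edgeR interaction, lowest adjusted p = 0.932). Of the receptor genes 3 of 4 lay above 0 (median 0.40), and 2 of 4 without E47KO replicate 2 (median -0.02). Lfng, a glycosyltransferase that modifies Notch, was named after its values were seen: at 109, 100 and 111 CPM in E47wt and 145, 189 and 136 CPM in E47KO it did not overlap, with a log2 fold change of 0.54 ± 0.14 (edgeR, adjusted p = 0.971).

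Of the E protein and Id genes, Tcf3 had a log2 fold change of 0.18 ± 0.11 in E12KO and 0.39 ± 0.12 in E47KO (edgeR, adjusted p = 0.605 and 0.971). Tcf4 was at 0.07 and -0.02 and Tcf12 at 0.00 and -0.09. Id2, whose protein blocks E proteins, had 58.6, 58.8 and 63.2 CPM in the wild type (E12wt) against 47.7, 41.3 and 42.5 CPM in E12KO, without overlap. Its log2 fold change of -0.45 ± 0.08 was called by DESeq2 (adjusted p = 0.000611) and not by edgeR (adjusted p = 0.223). Of the pathway genes listed by role beside the 6 repressors, Id2 and Cdkn1c were the 2 that DESeq2 called in E12KO. The cell type markers were not part of that count.

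The counts rest on reads of the strand opposite to the sequenced one, and reads of the other strand could come from antisense transcripts. Summed over the 12 libraries, the other strand held between 0.0381% of the strand-assigned reads for Hes5 (exact 95% binomial interval 0.0303 to 0.0472%) and 0.172% for Heyl (0.0355 to 0.502%), and these intervals cover counting error only. In the GRCm38 annotation Hes5 was the only member that overlaps another gene, Gm20421, which lies on the other strand.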

How the data were processed

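Stranded mRNA libraries (12, with 3 per group) were analysed from deposited files. Per the submitters' processing notes STAR 2.5, DESeq2 and DESeq were used with genome build mm9. For the annotation, a release was not given in the sources used here. Per the labels the libraries are stranded, and the authors deposited read counts per gene and library in the layout of STAR gene counting, for both strands, the sense strand and the opposite strand. The opposite-strand counts held 97.1 to 97.2% of strand-assigned reads and were used for all tests; rows that name no gene (14.2 to 17.5% of reads) were left out. The authors also deposited a table per line with normalized signal, log2 fold changes, a test score and p-values, quoted only where named. Scaling the both-strand counts by a single size factor gives back that signal within a relative difference of 5.11e-15.

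Counts were tested in R 4.3.3 with edgeR 4.0.16 (quasi-likelihood F test, low-count filter by group, TMM, two-sided, Benjamini-Hochberg (BH) over all genes tested, threshold 0.05), with the 6 libraries of a line in its fit and the interaction with all 12. SE is the fold change over the root of F. DESeq2 1.42.0 was an alternative, with those of the closing section. CPM per library is TMM-scaled over 12 libraries; log2 CPM has a prior count of 2. Correlations used 100000 permutations (SciPy 1.17.1), or all of them for 8 libraries. The edgeR fit and the ranking of genes by likeness were tested on simulated data. Names, exon lengths, overlaps and promoters came from GRCm38, not from the build of the files; mm9 coordinates and protein sequences were not used here.

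The members, the lists and the rule for named genes were chosen with earlier results of these data known. The rule names the 6 members, Tcf3, Tcf4 and Tcf12, the 3 genes most like each member, every called list gene or else the 2 most abundant, and any member of the receptor, ligand, repressed, Groucho and E protein lists; any other gene was picked with its values in view. Values of a few single genes that the rule names or the lists hold are not reported here; list counts and sums include them. The labels tie no replicate number to a litter or day. Same-numbered libraries were taken as paired in the E47 line, where their deviations correlated at 0.100, 0.229 and 0.455, all over 0.1. E47wt replicate 1 correlated more with E47KO replicate 2 (0.148), so the pairing of replicate 1 is not borne out by these values. In the E12 line same-numbered libraries were at 0.0895, 0.0581 and -0.00789. Same-numbered wild types of the E12 and E47 lines were at 0.0497, 0.257 and 0.281. Libraries of a group differed by more than sampling noise (chi-square over degrees of freedom at least 12.0).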

Additional observations from a re-analysis of the deposited data

How the results depend on the processing

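No member was called in any of the 360 values fitted for the 6 members under alternatives in 4 comparisons (lowest adjusted p 0.25, edgeR), and 322 kept the direction. The replicate block changed no member call; with it Hes6 was at 0.21 in the E12 line and at 0.44 in the E47 line. Genes called over all tested were 6 in the E12 line, and 95 with DESeq2, 20 with no low-count filter, 2 with all 12 libraries in the fit and 2 to 10 without 1 library. In the E47 line they were 2, and 5 with DESeq2, 1 with the sex-linked class, 0 with replicate 3 left out of every group and 0 to 7 without 1 library. In the interaction they were 0, with 1 by DESeq2 and 0 to 1 without 1 library, and between the wild types 0, with 8 by DESeq2 and 1 with all 12 libraries. DESeq2 called 2 genes of the pathway lists in the E12 line, edgeR 0. With the sex-linked class, directions turned in the E47 line for Hey1 (-0.061) and Hey2 (-0.026), in the interaction for Hey1 (-0.23), Hey2 (-0.17) and Heyl (-0.35), and between the wild types for Hes5 (0.029). With replicate 3 left out of every group, an alternative chosen after seeing the data, Hey2 was -0.079 in the E12 line, and between the wild types Hes5 was 0.071, Hey1 0.043, Hey2 0.018 and Heyl 0.00411. Hes5 between the wild types, -0.00155, was 5.53e-05 with RLE factors, 0.000554 with no filter and 0.000911 with all 12 libraries. Without 1 library the ranges that cross 0 were, in the E12 line, -0.15 to 0.10 for Hes5, -0.040 to 0.32 for Hey1 and -0.19 to 0.40 for Hey2; in the E47 line, -0.011 to 0.56 for Hey1 and -0.40 to 1.06 for Hey2; in the interaction, -0.19 to 0.37 for Hey1, -0.54 to 0.91 for Hey2 and -0.34 to 1.00 for Heyl; and between the wild types, -0.016 to 0.46 for Hes1, -0.064 to 0.032 for Hes5, -0.24 to 0.25 for Hey1, -0.54 to 0.34 for Hey2 and -0.90 to 0.11 for Heyl. Centred on group means, r of Hes1 and Hes5 was -0.0528 and of Hes1 and Hes6 0.611; within the 8 libraries, chosen after seeing the data, -0.185 and 0.682; without the 2 farthest, Hes1 and Hes6 had 0.783 and Hes5 and Hes6 -0.0426. The cause was not tested. With 3 libraries a group, the intervals of all members but Hes6 in the E47 line leave changes above 2-fold in view. Whether more depth would narrow them was not tested.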

Other observations

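Of the closest relatives of the family, Hes3 was at 0.0951 to 0.721 CPM, and Hes7 and Helt had too few reads for the test in any comparison. Hes3, named after its values were seen, had 0.477, 0.415 and 0.439 CPM in the wild type (E12wt) against 0.248, 0.225 and 0.0951 CPM in E12KO, without overlap and with a log2 fold change of -1.22 ± 0.38 (edgeR, adjusted p = 0.515). Bhlhe40 had 210, 229 and 123 CPM in the wild type (E12wt) against 235, 261 and 254 CPM in E12KO, also without overlap, at 0.42 ± 0.20 (edgeR, adjusted p = 0.557); the lowest of these is E12wt replicate 3.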
